A study of Mus musculus with 66 samples.

Results

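The comparison concerned mouse lung lacking the transcription factor Nrf2 in late gestation, set against wild-type lung of the same labelled age. The samples were the 3 labelled knockout at embryonic day E18.5 (Nrf2-/-) and the 3 labelled wild type at E18.5 (Nrf2+/+), 6 of the 66 samples of the study, taken by genotype and age on the labels. All 45037 probe sets that were not controls were compared. The whole study measured homogenized lung on 1 Affymetrix mouse array per sample, in 22 groups of 3, Nrf2-/- and Nrf2+/+ at 11 ages from E13.5 to postnatal day PND42. Knockout and wild-type groups of E17.5 and of the day of birth, PND0, are used below for comparison. At all ages used here each sample was 1 lung (at E13.5, not used singly here, lungs were combined), taken by surgery before birth from time-mated dams on AIN-76A feed. The labels give no strain background and do not say which samples shared a litter.

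Nrf2, encoded by Nfe2l2, is held in the cytoplasm by Keap1 and degraded until oxidants or electrophiles release it. It then pairs with a small Maf protein on antioxidant response elements in DNA and raises genes for glutathione use, NADPH supply and detoxification, while Bach1 competes for the same elements. In the last days before birth the mouse lung passes from the canalicular to the saccular stage: epithelial tips stop dividing and mature into flat type 1 cells, which carry gas exchange, and type 2 cells, which make surfactant.

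All 6 libraries had lung identity. Surfactant protein C, Sftpc, the defining gene of distal lung epithelium, stood at 14.68, 14.67 and 14.72 in knockout libraries and at 14.57, 14.68 and 14.60 in wild-type libraries, on the log2(signal + 16) scale used for every level below. The deposited signals of all 6 arrays had a 2% trimmed mean of 500, and Gapdh probe sets at the 3' end read 0.768 to 0.779 of those at the 5' end in knockout arrays, against 0.742 to 0.822 in wild-type arrays. Within the knockout group arrays correlated at 0.9671 to 0.9815, and within the wild-type group at 0.9685 to 0.9787. The 3 arrays per group limited the precision, and each SE below rests on the spread within all 22 groups and is therefore too small where the libraries of 1 group were unlike.

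Features of the libraries go before the results. Knockout replicate 1 and wild-type replicate 3 stood apart in genes of tissues that lie beside the lung. The 16 heart muscle genes averaged 12.79, 9.95 and 10.34 in knockout replicates 1 to 3 and 8.23, 8.09 and 11.70 in wild-type replicates 1 to 3. The 11 thymocyte genes averaged 8.46, 5.98 and 5.72 in knockouts against 5.38, 6.03 and 8.75 in wild types, so the same pair of libraries was high. Cartilage genes were by far the highest in knockout replicate 1, and the other knockouts also lay above all wild types. The 17 genes averaged 9.27, 7.23 and 7.19 in knockouts and 6.31, 6.25 and 6.95 in wild types. Nervous tissue genes averaged 8.36, 6.55 and 6.98 in knockouts and 5.96, 5.95 and 7.05 in wild types. Xist, the RNA of the inactive X chromosome, ranged from 10.74 to 13.87 in knockouts and from 6.57 to 13.92 in wild types, so both groups were uneven in it. Counts below that move with single libraries are given with and without them.

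**Figure D1:**
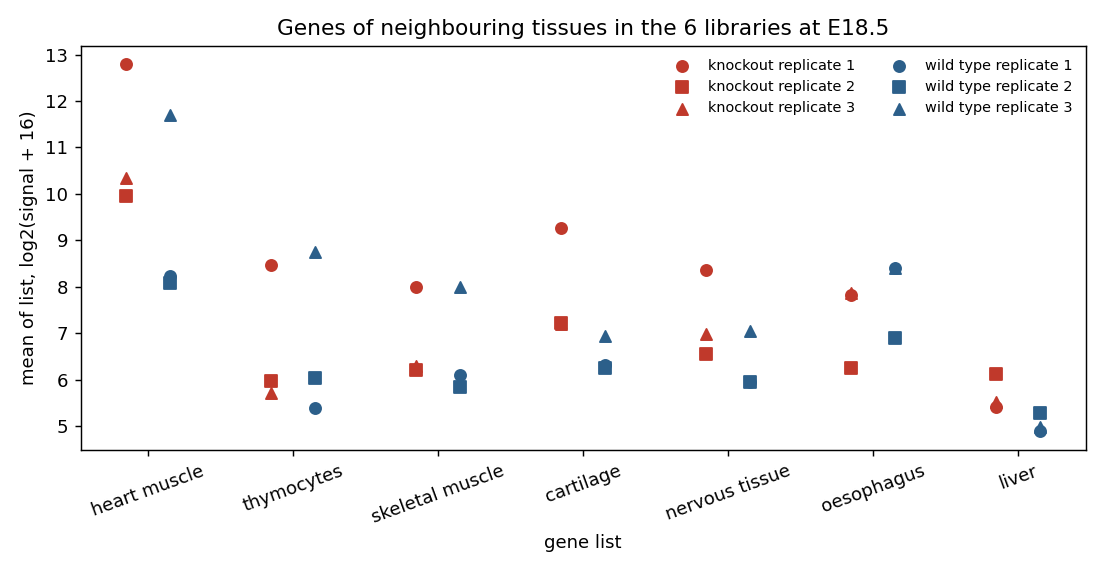
Mean level of 7 lists of genes of neighbouring tissues, as log2(signal + 16), in each of the 6 libraries labelled E18.5, with knockouts left of wild types and marker shapes for replicates 1 to 3. Knockout replicate 1 and wild-type replicate 3 lie above the others of their group for heart muscle (12.79 and 11.70), thymocyte and skeletal muscle genes.

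The other feature was the order of the libraries along developmental age. On a scale of 2486 genes that changed in wild type from E15.5 (0) to PND0 (1), the knockout libraries labelled E18.5 lay at 0.34, 0.51 and 0.48, against 0.89, 0.91 and 0.69 for wild-type libraries labelled E18.5. The groups did not overlap. The knockout libraries labelled E17.5 lay at 0.73, 0.83 and 0.81, against 0.53, 0.56 and 0.67 for wild-type E17.5, so the knockout libraries labelled E18.5 lay below those labelled E17.5. At PND0 knockouts averaged 1.10 ± 0.02 and wild types 1.00 ± 0.06 (SD, n = 3 each). Across arrays, the knockout libraries labelled E18.5 correlated at a mean of 0.9734 with wild-type E17.5 and of 0.9637 with wild-type E18.5. Those labelled E17.5 correlated at a mean of 0.9744 with wild-type E17.5 and of 0.9718 with wild-type E18.5. For them the correlations thus did not follow the age scale, which put them nearer to wild-type E18.5. The order on the age scale goes against the age labels of the knockout libraries. Genotype, age at sampling and labelling cannot be told apart in these 6 libraries. Ages below are those on the labels.

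**Figure D2:**
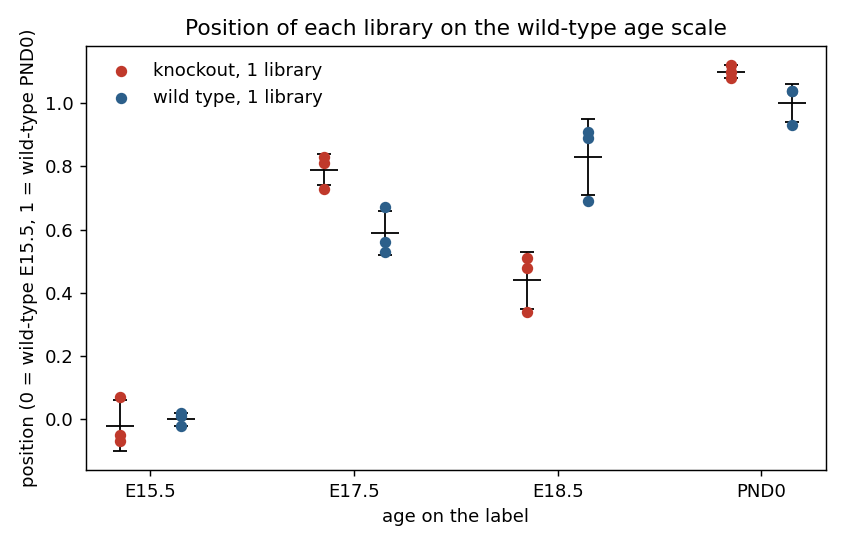
Position of each library (point) on a scale of 2486 genes from wild-type E15.5 (0) to wild-type PND0 (1), by age on the label, knockouts left of wild types; black bars are the mean and SD of 3 libraries. The knockouts labelled E18.5 average 0.44 ± 0.09, below the knockouts labelled E17.5 (0.79 ± 0.05) and the wild types labelled E18.5 (0.83 ± 0.12).

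The targeted gene followed the genotype labels. Nfe2l2 stood at 5.63, 4.98 and 5.64 in knockout libraries and at 12.25, 12.15 and 11.99 in wild-type libraries, a difference of -6.71 ± 0.34 (SE, limma, adjusted p = 1.5e-20). The levels were far apart and did not overlap. A second, dim probe set of Nfe2l2 differed by -0.08 and was not called. Differences are knockout minus wild type, a difference of 1 is 2-fold, and the added 16 makes them too small for dim genes. Among the 50 measured genes nearest to Nfe2l2 on chromosome 2, 25 on each side, 1 was higher and 3 were lower, 2% and 6%, against 7.1% and 5.3% of all genes. Cwc22, a splicing factor, was the most changed of them, at 8.41, 8.56 and 8.30 in knockouts against 9.32, 9.26 and 9.31 in wild types (-0.87 ± 0.15, adjusted p = 5.3e-05). Wipf1, which binds the actin regulator WASP, was at -0.63 (adjusted p = 0.0035), the lipid-binding protein gene Osbpl6 at -0.60 (adjusted p = 0.042) and Chn1, a Rac-regulating protein, at 0.53 (adjusted p = 0.022).

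The question for the Nrf2 pathway was how much of its target programme was lower in fetal lung without Nrf2. Of 37 measured target genes, 5 fell and 2 rose (13.5% and 5.41%, against 5.3% and 7.1% of all genes). The share that rose was thus no more than that of all genes. Of the 37 differences 27 were below 0, against 8649 of 18193 for all genes, with a median of -0.16 against 0.02. The 5 that fell were aldehyde oxidases and glutathione transferases with an NADPH-producing enzyme. Without any single library, and without the pair that stood apart, the counts stayed at 5 lower and 2 higher. RefSeq promoters of 3 genes from GRCm38.p6, 250 bases before to 50 after the start site, are shown because they belong to changed targets and hold the letters TGACNNNGC, the core of the antioxidant response element, on either strand. Capitals mark the match, which starts at -121 from the start site in Gsta3 (chr1:21240335-21240634, + strand), at -6 in Me1 (chr9:86695865-86696164, - strand) and at -92, on the opposite strand, in Txnrd1 (chr10:82858956-82859255, + strand, 1 of 3 windows listed for that gene).
Gsta3: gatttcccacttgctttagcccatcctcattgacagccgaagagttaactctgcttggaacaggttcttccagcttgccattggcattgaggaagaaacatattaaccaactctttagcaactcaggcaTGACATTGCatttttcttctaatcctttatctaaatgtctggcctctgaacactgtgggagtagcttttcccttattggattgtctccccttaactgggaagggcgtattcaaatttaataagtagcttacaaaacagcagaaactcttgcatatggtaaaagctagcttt
Me1: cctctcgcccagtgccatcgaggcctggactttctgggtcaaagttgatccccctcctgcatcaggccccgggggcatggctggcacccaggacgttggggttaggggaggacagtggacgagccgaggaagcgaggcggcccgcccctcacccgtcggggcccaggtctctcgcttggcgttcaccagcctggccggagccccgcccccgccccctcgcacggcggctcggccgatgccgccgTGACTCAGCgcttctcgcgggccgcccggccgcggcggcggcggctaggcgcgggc
Txnrd1: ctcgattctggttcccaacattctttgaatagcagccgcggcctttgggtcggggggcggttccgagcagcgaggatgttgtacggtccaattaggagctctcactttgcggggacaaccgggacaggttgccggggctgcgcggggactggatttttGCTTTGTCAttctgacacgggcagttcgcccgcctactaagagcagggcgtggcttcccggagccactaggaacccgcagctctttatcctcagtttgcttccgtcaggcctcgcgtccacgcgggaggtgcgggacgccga
The Me1 match also overlaps the letters of an AP-1 site. The motif was present in promoters of 9 of 31 targets with a promoter in the table (29%), and in 2334 of 14452 genes overall (16.2%). Of genes that fell at E18.5, 122 of 774 held it (15.8%), and of genes that rose, 173 of 1069 (16.2%). Of the 7 changed targets, the other 4, Aox3, Aox1, Gstm1 and Tkt, held no match, and neither did the second window of Me1 or the other 2 of Txnrd1. Matches are letters in these windows and say nothing of binding.

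Gsta3, a glutathione S-transferase that conjugates electrophiles, stood at 4.95, 4.81 and 4.63 in knockouts and at 7.21, 6.81 and 6.66 in wild types, a difference of -2.10 ± 0.37 (adjusted p = 0.00012). Its 3 knockout values lay below all wild-type values, while a second probe set was at -0.57 and did not pass. Aox3, an aldehyde oxidase, stood at 6.59, 7.09 and 6.51 in knockouts and at 9.63, 9.37 and 8.99 in wild types (-2.60 ± 0.26, adjusted p = 1.7e-09). Aox1, of the same family, was at 6.0, 5.90 and 6.41 in knockouts against 7.29, 7.54 and 7.48 in wild types (-1.34 ± 0.26, adjusted p = 0.00034). Both oxidase genes were separated between the genotypes. Gstm1, another glutathione transferase, was at 9.41, 9.53 and 9.70 in knockouts and 10.94, 11.06 and 10.45 in wild types (-1.27 ± 0.21, adjusted p = 5e-05), and transferases of this family are similar in sequence, so probes may not tell them apart. Me1, malic enzyme, which makes NADPH, was at 8.68, 8.30 and 8.64 in knockouts and 9.44, 9.28 and 9.61 in wild types (-0.90 ± 0.15, adjusted p = 3.9e-05). A second probe set of Me1 was at -0.45 and did not pass. The targets that rose did so by less than these falls. Tkt, transketolase of the pentose phosphate pathway, was at 13.48, 13.53 and 13.49 in knockouts and 13.12, 13.05 and 12.30 in wild types (0.68 ± 0.13, adjusted p = 0.00029). Txnrd1, thioredoxin reductase, was at 10.71, 10.34 and 10.46 in knockouts and 9.72, 9.64 and 10.21 in wild types (0.65 ± 0.13, adjusted p = 0.00079). Both lost the call when the 6 libraries were fitted alone. Several genes often used as Nrf2 readouts did not pass: the quinone reductase Nqo1 was at 0.35 (adjusted p = 0.38), Gclc and Gclm, the subunits of glutamate-cysteine ligase, at -0.35 (adjusted p = 0.079) and 0.04 (adjusted p = 0.94), and the haem oxygenase Hmox1 at -0.18 (adjusted p = 0.73).

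Of 12 partner genes, 3 fell and none rose (25% lower, against 5.3% of all genes). Bach1, the repressor that competes with Nrf2, was at 10.64, 10.78 and 10.66 in knockouts and 11.61, 11.75 and 11.37 in wild types (-0.89 ± 0.13, adjusted p = 9.9e-06). The small Maf genes Maff and Mafk, which encode DNA-binding partners, were at -0.72 (adjusted p = 0.028) and -0.50 (adjusted p = 0.033), and 1 or 2 of the 12 partner genes passed when a single library was left out. Keap1, the inhibitor, was at -0.05 (adjusted p = 0.91). Of 22 other antioxidant enzymes 3 fell and 2 rose (13.6% and 9.09%, against 5.3% and 7.1% of all genes), and 5 fell without knockout replicate 1 or without both libraries that stood apart. Those that fell were catalase Cat (-0.90, adjusted p = 7.2e-06), the glutathione transferase Gsto1 (-1.63, adjusted p = 0.0043) and the superoxide dismutase Sod1 (-0.48, adjusted p = 0.0021). Prdx4, a peroxiredoxin of the endoplasmic reticulum (0.83, adjusted p = 5e-06), and mitochondrial Txn2 (0.43, adjusted p = 0.014) rose. Gsto1 varied within both groups, at 10.41, 9.12 and 11.13 in knockouts and 12.17, 11.22 and 12.15 in wild types, and lost the call without knockout replicate 2. Txn2 lost it without knockout replicate 1 or wild-type replicate 2.

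Across the genome 3940 probe sets passed (8.75%), 2126 higher (4.72%) and 1814 lower (4.03%) in knockouts. With array medians subtracted in place of quantile normalization, 66% of the calls were higher, against 54% here, so the balance of rises and falls depended on the scaling. The calls stood for 2255 of 18193 genes (12.4%), 1291 higher and 964 lower, and in 30.9% of genes the 3 knockout values did not overlap the 3 wild-type values. Genes that change with age in wild type were the ones that differed most often. Of 1360 genes that rose at least 2-fold in wild type from E15.5 to PND0 (7.48% of genes), 466 were lower in E18.5 knockouts (34.3%) and 7 were higher. Of 1126 genes that fell over those ages (6.19%), 491 were higher in knockouts (43.6%) and 0 were lower. Of 11509 genes with no call in wild type from E15.5 to PND0, 268 were higher (2.33%) and 191 lower (1.66%). No E18.5 level entered the choice of these age genes, although their SE drew on the spread in all groups. The total count moved with single libraries: it was 1716 without knockout replicate 1, 2019 without wild-type replicate 1, 1651 without wild-type replicate 2 and 2435 without both libraries that stood apart.

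After Nfe2l2, the largest falls were in Pon1, Slc13a4, Car4 and Aox3. Pon1, paraoxonase, an esterase that hydrolyses lactones and organophosphates, was at 7.46, 8.06 and 8.03 in knockouts and 11.38, 11.36 and 10.03 in wild types (-3.07 ± 0.46, adjusted p = 8.2e-06). Slc13a4, a sodium-sulfate cotransporter, was at 5.07, 4.67 and 5.17 in knockouts and 8.27, 8.39 and 7.11 in wild types (-2.95 ± 0.43, adjusted p = 5.7e-06). Car4, the carbonic anhydrase on the surface of alveolar capillaries, was at 6.30, 6.16 and 6.49 in knockouts and 9.65, 9.40 and 8.30 in wild types (-2.80 ± 0.34, adjusted p = 1.6e-07), and its second probe set was at -2.63. In each of these genes wild-type replicate 3 was nearest the knockouts and still stood above them. Inmt, an amine N-methyltransferase abundant in lung, was at 9.22, 9.43 and 9.52 in knockouts and 12.30, 12.13 and 11.10 in wild types (-2.45 ± 0.47, adjusted p = 0.00035). Rtkn2, a marker of type 1 cells, was at 7.43, 8.03 and 7.85 in knockouts and 10.08, 10.37 and 9.63 in wild types (-2.26 ± 0.27, adjusted p = 1.2e-07). Ifitm1, an interferon-inducible membrane protein gene, was at 10.02, 10.35 and 10.31 in knockouts and 12.71, 12.69 and 12.14 in wild types (-2.28 ± 0.21, adjusted p = 1.2e-10). Complement genes were among the largest falls as well. C6, a component of the membrane attack complex, was at 6.18, 6.41 and 6.48 in knockouts and 9.09, 8.85 and 8.31 in wild types (-2.40 ± 0.33, adjusted p = 2.4e-06), and Hc, complement C5, differed by -2.35 ± 0.45 (adjusted p = 0.00037). Lcn2, a lipocalin that binds bacterial siderophores, differed by -2.43 ± 0.41 (adjusted p = 6e-05). Tshb, the beta chain of thyroid-stimulating hormone, differed by -2.37 ± 0.28 (adjusted p = 8.8e-08), Zfp949, a zinc finger gene, by -2.24 ± 0.26 (adjusted p = 5.5e-08) and the lipase-related gene Pnliprp1 by -2.19 ± 0.33 (adjusted p = 1.2e-05). Arg1, arginase, differed by -2.33 ± 0.58 (adjusted p = 0.0056) and lost the call without wild-type replicate 1 (-1.89, adjusted p = 0.079). The other 14 of the 15 largest falls passed under every alternative run for them.

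**Figure D3:**
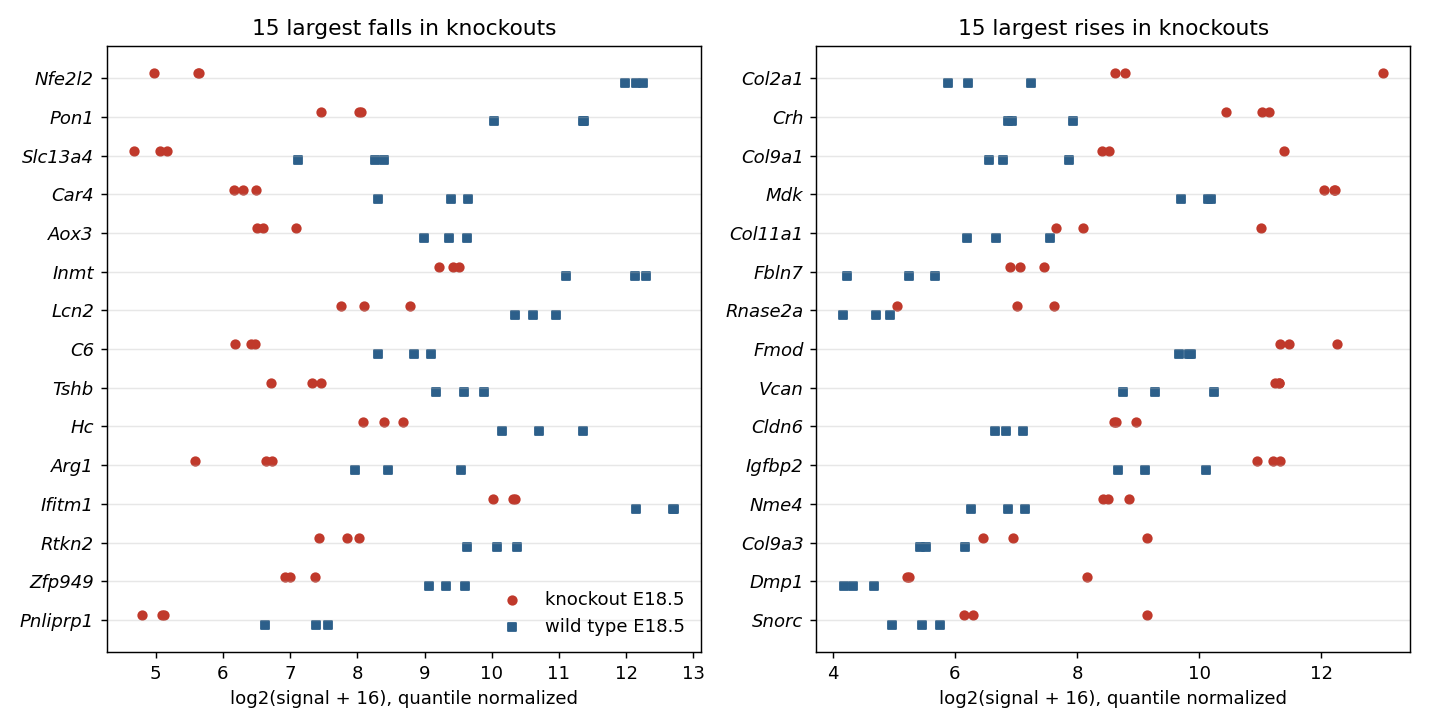
Levels, as log2(signal + 16), of the 15 genes with the largest falls (left) and the 15 with the largest rises (right) among genes called at E18.5 whose groups did not overlap; each point is 1 library, knockouts above wild types. The cartilage genes Col2a1, Col9a1, Col11a1, Col9a3 and Snorc have 1 knockout value far above the rest.

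The largest rises were in Col2a1, Crh, Col9a1 and Mdk. Crh, corticotropin-releasing hormone, was at 10.44, 11.15 and 11.03 in knockouts and 6.94, 6.87 and 7.94 in wild types (3.62 ± 0.34, adjusted p = 1.2e-10). Mdk, midkine, a heparin-binding growth factor of embryonic tissue, was at 12.21, 12.04 and 12.22 in knockouts and 10.15, 9.70 and 10.20 in wild types (2.14 ± 0.22, adjusted p = 2.6e-09). Vcan, the proteoglycan versican, was at 11.25, 11.31 and 11.31 in knockouts and 9.27, 8.75 and 10.25 in wild types (1.87 ± 0.23, adjusted p = 2.1e-07). Only 3 of its 7 other probe sets were called, and the differences of the 7 ranged from 0.09 to 1.75. On the probe sets whose levels are given, Crh, Mdk and Vcan were tight within knockouts and clear of wild type. Fmod, the collagen-binding proteoglycan fibromodulin, was at 12.26, 11.47 and 11.32 in knockouts and 9.67, 9.84 and 9.87 in wild types (1.89 ± 0.23, adjusted p = 8.3e-08), and its 5 other probe sets were called too. Cldn6, a claudin of embryonic epithelia, was at 8.60, 8.96 and 8.64 in knockouts and 6.83, 6.66 and 7.11 in wild types (1.87 ± 0.31, adjusted p = 4.1e-05). Fbln7, a fibulin of the matrix, differed by 2.10 ± 0.35 (adjusted p = 4.4e-05) and Nme4, a mitochondrial nucleoside diphosphate kinase, by 1.83 ± 0.34 (adjusted p = 0.00019). These 7 rises passed under every alternative run for them. The other 8 of the 15 did not. Col2a1, the main collagen of cartilage, was at 13.02, 8.78 and 8.62 in knockouts and 5.89, 6.22 and 7.25 in wild types (3.69 ± 1.00, adjusted p = 0.012). Knockout replicate 1, which was high in cartilage genes, stood highest, and without it the difference was 2.25 (adjusted p = 0.27); the call was also lost without wild-type replicate 1 or 2. The other cartilage and bone matrix genes with knockout replicate 1 on top, Col9a1 (2.37), Col11a1 (2.11), Col9a3 (1.82), Snorc (1.80) and Dmp1 (1.81), also lost the call without that library. Igfbp2, which binds insulin-like growth factors, was at 11.21, 10.94 and 11.32 in knockouts and 9.11, 8.67 and 10.12 in wild types (1.86 ± 0.57, adjusted p = 0.03), and lost the call without knockout replicate 1 or 3 or wild-type replicate 1 or 2. Rnase2a, a ribonuclease of eosinophils, was at 5.05, 7.63 and 7.01 in knockouts and 4.70, 4.94 and 4.17 in wild types (1.96 ± 0.53, adjusted p = 0.012), and lost it without knockout replicate 2 or 3.

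Several genes of mature lung epithelium fell, while many on the same lists did not pass. In bulk tissue, fewer cells of a type and less RNA per cell cannot be told apart. Of 20 type 2 cell and surfactant genes 9 fell and none rose (45% lower against 5.3% of all genes; median -0.75), and 7 to 10 fell when any single library was left out. Sftpd, surfactant protein D, which opsonises microbes, was at 9.45, 10.82 and 10.82 in knockouts and 12.74, 12.43 and 12.06 in wild types (-2.04 ± 0.41, adjusted p = 0.00068). Lyz2, lysozyme, was at 11.35, 11.81 and 11.92 in knockouts and 14.03, 13.96 and 13.44 in wild types (-2.12 ± 0.35, adjusted p = 4.5e-05), and Lyz1 differed by -1.94 (adjusted p = 0.00034). Lysozyme is also a macrophage gene, and Ctss (-1.01) and Mertk (-0.78), macrophage genes, fell as well. With Lyz2 these were 3 of 16 on the macrophage list (18.8% against 5.3% of all genes). Scd1, a desaturase of surfactant lipid supply, was at 10.65, 11.10 and 11.70 in knockouts and 13.16, 13.36 and 12.45 in wild types (-1.84 ± 0.41, adjusted p = 0.002). The cytokine gene Il33 (-1.41), the chitinase-like gene Chil1 (-1.46), the lipid transporter gene Abca3 (-0.77) and the lecithin-making enzyme gene Lpcat1 (-0.63) also fell. Some surfactant genes did not pass: Sftpc was at 0.08 (adjusted p = 0.92), Sftpb at -0.40 (adjusted p = 0.44) and Sftpa1 at -1.03 (adjusted p = 0.076).

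Of 18 type 1 cell genes 8 fell and 2 rose (44.4% and 11.1%, against 5.3% and 7.1% of all genes, median -0.73). At most 1 member rose when any single library was left out. Aqp5, the water channel of type 1 cells, was at 8.56, 9.34 and 9.35 in knockouts and 11.37, 11.36 and 10.81 in wild types (-2.10 ± 0.39, adjusted p = 0.00025). Clic5, a chloride channel gene (-1.11), Pdpn, podoplanin of the apical membrane (-0.76), Vegfa, the endothelial growth factor (-0.80), Akap5 (-0.85), Lmo7 (-0.83) and the caveolar gene Cav1 (-0.42) fell, while Igfbp2 and the receptor gene Gprc5a (1.00) rose. Ager, the most abundant marker of the list, was at 13.54, 14.12 and 13.98 in knockouts and 14.68, 14.72 and 14.53 in wild types, and did not pass (-0.76, adjusted p = 0.18). With single libraries left out 3 to 9 members fell, with 3 lower without knockout replicate 1 or wild-type replicate 2, 4 without wild-type replicate 1 and 3 without both libraries that stood apart. Of 11 club cell genes 2 fell (18.2% against 5.3% of all genes): Scgb1a1, the main airway secretory protein, at 12.55, 12.88 and 13.14 in knockouts and 14.61, 14.55 and 14.29 in wild types (-1.63 ± 0.50, adjusted p = 0.03), and Cyp2f2, a lung cytochrome P450 (-1.29 ± 0.42, adjusted p = 0.043). Both were separated between genotypes, but at most 1 of them passed without any single library. None of 18 ciliated cell genes passed. Of 19 epithelial transcription factors 1 rose and 1 fell (5.26% each), no more than the 7.1% and 5.3% of all genes. Foxp2, a repressor of distal epithelium, rose (0.72, adjusted p = 0.014) and Id2, a tip marker, fell (-0.47, adjusted p = 0.0058); Foxp2 lost the call without knockout replicate 2 or 3, and Id2 without knockout replicate 1. The neuroendocrine list had 1 call of 10, a rise (10% against 7.1% of all genes). It was Uchl1, a ubiquitin hydrolase (1.67, adjusted p = 0.00011), which nerve cells also express.

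Proliferation genes were higher. Of 35 cell cycle genes 26 rose and none fell (74.3% against 7.1% of all genes; median 1.13). The list averaged 10.59, 10.21 and 10.22 in knockout libraries and 8.91, 8.95 and 9.85 in wild-type libraries, so the groups did not overlap and wild-type replicate 3 stood between. Kif20a, a kinesin of cytokinesis, was at 10.17, 9.80 and 9.67 in knockouts and 7.78, 7.95 and 8.88 in wild types (1.68 ± 0.36, adjusted p = 0.0015). Mcm2, of the replicative helicase, was at 10.68, 10.06 and 10.15 in knockouts and 8.63, 8.39 and 9.60 in wild types (1.42 ± 0.31, adjusted p = 0.0017), and 6 of the helicase genes, Mcm2 to Mcm7, rose by 1.07 to 1.42. Kif20a, Mcm2, Mcm4 and E2f1, the transcription factor of the S phase genes (1.02, adjusted p = 0.001), kept the call under all 22 alternatives run for them. The proliferation marker Mki67 was at 12.04, 11.98 and 11.83 in knockouts and 10.54, 10.67 and 11.38 in wild types and missed the threshold (1.08, adjusted p = 0.058). Of 16 genes that restrain division 5 fell and 1 rose (31.2% and 6.25%, against 5.3% and 7.1% of all genes), and 3 fell without knockout replicate 1, without wild-type replicate 1, without both libraries that stood apart or with array medians subtracted. The cyclin kinase inhibitors Cdkn2b (-1.47, adjusted p = 0.0042) and Cdkn1a (-1.21, adjusted p = 0.00098), the growth-arrest genes Gadd45a (-0.63), Btg2 (-0.55) and Btg1 (-0.45) were lower, and Cdkn2c (0.67) was higher. The cell cycle count was 5 without knockout replicate 1, without wild-type replicate 1 or without wild-type replicate 2, 17 without knockout replicate 3, 31 without wild-type replicate 3 and 17 without both libraries that stood apart.

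**Figure D4:**
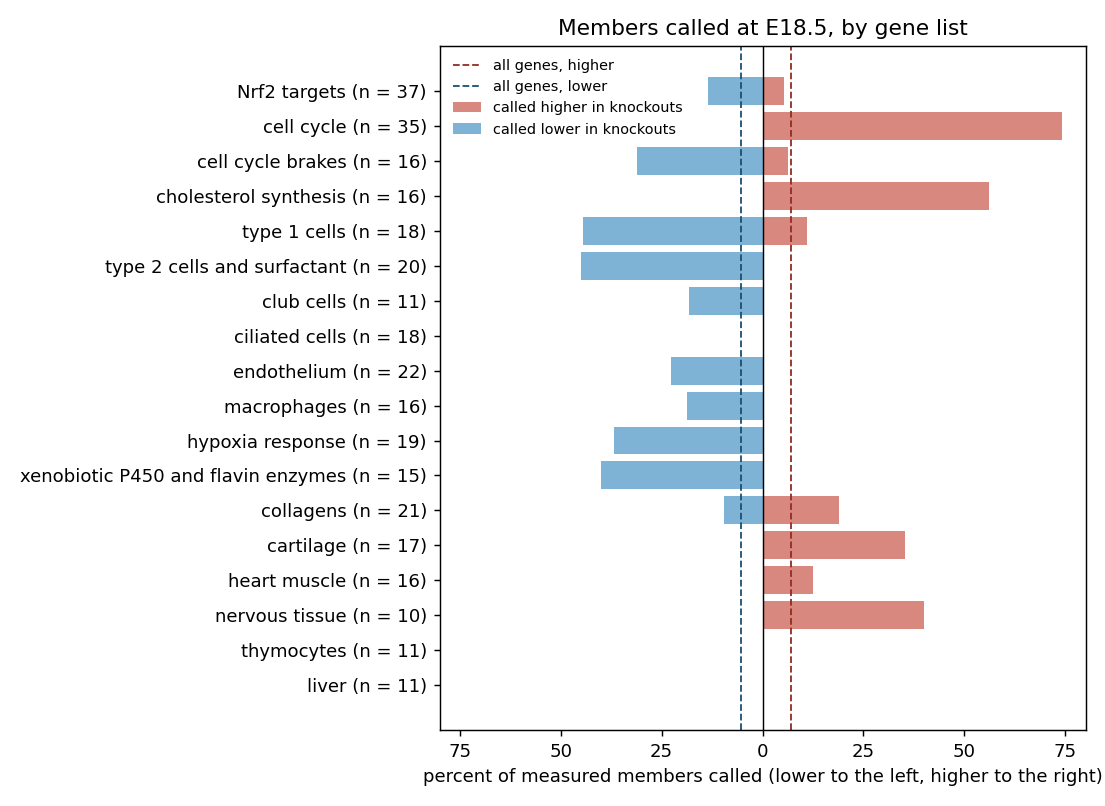
Percent of measured members of 18 gene lists called lower (left of 0) or higher (right of 0) in knockouts labelled E18.5, with dashed lines at the 5.3% and 7.1% of all genes. Cell cycle and cholesterol synthesis genes lie to the right, and type 1 cell, type 2 cell and xenobiotic enzyme genes mainly to the left.

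Lipid genes went both ways. Of 16 cholesterol synthesis genes 9 rose and none fell (56.2% higher against 7.1% of all genes, median 0.57), by less than 2-fold each. Sqle, squalene epoxidase, was at 10.10, 10.15 and 9.97 in knockouts and 9.06, 8.98 and 9.63 in wild types (0.85 ± 0.17, adjusted p = 0.00072). Msmo1 (0.92), Fdps (0.85), Cyp51 (0.82) and Idi1 (0.75), enzymes along the same route, rose, as did Srebf2, the transcription factor of the pathway (0.61, adjusted p = 0.0082), and 5 members rose without wild-type replicate 1 or without wild-type replicate 2. Of 21 fatty acid and phospholipid genes 8 fell and 1 rose (38.1% and 4.76%, against 5.3% and 7.1% of all genes). The share that rose was thus below that of all genes. Among the falls were Gpam, which starts glycerolipid synthesis, at -0.80 and Chpt1, a choline phosphotransferase, at -0.70. The elongase Elovl6 was the 1 that rose, at 0.91. The count of falls was 3 without knockout replicate 1 and 4 without wild-type replicate 1 or 2. Of 15 xenobiotic enzymes of the P450, flavin and paraoxonase families 6 fell and none rose (40% lower against 5.3% of all genes, median -0.77). Without knockout replicate 1, 2 fell. Beside Pon1, Cyp4b1, a lung P450, was at 9.22, 9.84 and 9.63 in knockouts and 11.22, 11.21 and 10.42 in wild types (-1.39 ± 0.34, adjusted p = 0.0052), and the flavin monooxygenase Fmo1 was at 9.85, 9.66 and 9.94 in knockouts and 11.27, 10.88 and 10.89 in wild types (-1.20 ± 0.27, adjusted p = 0.0025). Pon3 (-0.88) and Pon2 (-0.54) fell less than Pon1.

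Of 19 hypoxia-response genes 7 fell and none rose (36.8% lower against 5.3% of all genes, median -0.34). The falls were led by Ankrd37 (-1.07) and the mitophagy gene Bnip3 (-0.82). Bnip3 was at 11.68, 11.61 and 11.39 in knockouts and 12.49, 12.40 and 12.24 in wild types, and 2 members passed without knockout replicate 1, 3 without wild-type replicate 2 and 4 without knockout replicate 2 or 3 or wild-type replicate 1. Of 18 glucocorticoid-response genes 5 fell and Crh rose (27.8% and 5.56%, against 5.3% and 7.1% of all genes). Without knockout replicate 1 or wild-type replicate 1 or 2, 2 fell. Klf9, a transcription factor induced by glucocorticoids, was at 11.48, 12.02 and 11.89 in knockouts and 13.25, 13.26 and 12.70 in wild types (-1.28 ± 0.27, adjusted p = 0.00096), and the receptor gene Nr3c1 was at -0.36 (adjusted p = 0.038). Of 14 genes of lung fluid clearance 3 fell (21.4% against 5.3% of all genes): Aqp5, the water channel Aqp1 (-1.37 ± 0.23, adjusted p = 5.8e-05) and Scnn1g, the gamma subunit of the epithelial sodium channel, at 8.73, 9.85 and 9.58 in knockouts and 10.51, 10.81 and 10.25 in wild types (-1.13 ± 0.28, adjusted p = 0.0051), and 2 members fell without knockout replicate 1 or wild-type replicate 2. Fos, an immediate early transcription factor, was at 8.67, 8.89 and 8.82 in knockouts and 10.47, 10.72 and 10.20 in wild types (-1.67 ± 0.27, adjusted p = 2.8e-05). With Klf4 (-0.68) it made 2 falls among 15 such genes (13.3% against 5.3% of all genes), and Klf4 lost the call without knockout replicate 1 or wild-type replicate 1 or 2.

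Of 22 endothelial genes 5 fell and none rose (22.7% lower against 5.3% of all genes, median -0.34). Without knockout replicate 1 or wild-type replicate 1 or 2, 3 fell. Beside Car4, the tight junction gene Cldn5 was at 10.70, 11.28 and 11.26 in knockouts and 12.12, 12.31 and 11.70 in wild types (-0.96 ± 0.20, adjusted p = 0.0013). The lymphatic gene Lyve1 (-0.80), the tip-cell ligand Apln (-0.78) and Kdr, a receptor for Vegfa (-0.64), made up the rest. Of 21 genes of collagens and collagen-processing proteins 4 rose and 2 fell (19% and 9.52%, against 7.1% and 5.3% of all genes). With single libraries left out 2 to 4 rose and 1 to 4 fell. Col4a3 and Col4a4, chains of mature basement membrane, fell (-1.77 ± 0.29, adjusted p = 4.3e-05, and -1.36 ± 0.30, adjusted p = 0.0017), while the collagen gene Col15a1 rose, at 8.87, 8.53 and 8.65 in knockouts and 7.53, 7.35 and 7.67 in wild types (1.17 ± 0.21, adjusted p = 0.00017). Of 16 elastic fibre genes 3 rose and 1 fell (18.8% and 6.25%, against 7.1% and 5.3% of all genes). The share that fell was thus near that of all genes, and 0 fell without knockout replicate 1 or 3 or any single wild-type library. Without knockout replicate 1 or 3 or wild-type replicate 2, 1 rose. Fbn2, the fetal fibrillin, was at 12.83, 13.07 and 12.78 in knockouts and 11.36, 11.05 and 11.89 in wild types (1.46 ± 0.23, adjusted p = 1.7e-05). Of 28 genes of branching signals 2 rose and none fell (7.14% higher), a share near the 7.1% of all genes, and 1 rose without knockout replicate 1 or 3 or wild-type replicate 1 or 2. Gli1, a readout of Hedgehog signalling, was 1 of them, at 8.22, 8.39 and 8.39 in knockouts and 7.13, 7.13 and 6.98 in wild types (1.25 ± 0.22, adjusted p = 0.0001). None of 13 mesenchymal transcription factors passed. Of 22 proteasome genes 7 rose and none fell (31.8% higher against 7.1% of all genes, median 0.29). With single libraries left out 1 to 13 were called, with 1 on deposited values and 3 with array medians subtracted. The 9 housekeeping genes, of which none passed, had a median of 0.24.

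Lists of neighbouring tissues moved with the libraries named above. Of 17 cartilage, 16 heart muscle and 10 nervous tissue genes 35.3%, 12.5% and 40% rose, against 7.1% of all genes. Of the cartilage genes 6 rose, and 0 did so without knockout replicate 1 or without both libraries that stood apart, and 1 without wild-type replicate 1 or 2. Of 16 heart muscle genes 2 rose, the myosin light chains Myl3 at 13.79, 9.99 and 8.93 in knockouts and 4.66, 4.98 and 11.48 in wild types (3.86 ± 1.18, adjusted p = 0.028) and Myl2 (3.67 ± 1.21, adjusted p = 0.045). The Myl3 groups overlapped, and 0 of the list rose without knockout replicate 1 or wild-type replicate 1 or 2, against 11 without wild-type replicate 3. Of 10 nervous tissue genes 4 rose, with the neurofilament gene Nefl at 2.79 ± 0.59 (adjusted p = 0.0013), and 0 did so without knockout replicate 1, 1 without wild-type replicate 1 and 2 without wild-type replicate 2. No thymocyte, skeletal muscle, liver or oesophagus gene passed, of 11, 16, 11 and 11.

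Whether the knockout difference at E18.5 was unlike that at other ages was tested as a difference of differences. Before quantile normalization, deposited signals had a 2% trimmed mean of 171.7 to 307.14 in PND1 to PND4 arrays and of 500 at the other ages. Gapdh 3' to 5' ratios reached 2.599 at PND14, against 0.742 to 0.822 at E18.5. The mean of the 10 other ages therefore took in arrays unlike those of E18.5 in scale and Gapdh ratio, and the E13.5 samples of combined lungs. Against the mean knockout difference of the 10 other ages, 4410 probe sets passed (9.79%), against E17.5 alone 3506 (7.78%) and against PND0 alone 5191 (11.5%). Without knockout replicate 1 the first 2 counts were 2213 and 2227, without wild-type replicate 2 they were 2160 and 2205, without wild-type replicate 1 the first was 2395, and with array weights they were 6942 and 7216. Genes named above turned round between the labelled ages. Pon1 was at 11.32, 11.60 and 11.55 in E17.5 knockouts against 7.68, 7.60 and 8.80 in E17.5 wild types, so the difference was 3.46 at E17.5 and -3.07 at E18.5 (difference between ages -6.54, adjusted p = 3.8e-10). Car4 was at 8.60, 9.14 and 8.90 in E17.5 knockouts against 6.38, 5.93 and 6.80 in E17.5 wild types, a difference of 2.51 (between ages -5.31, adjusted p = 5.9e-11). Crh turned the other way, at 8.62, 7.63 and 8.27 in E17.5 knockouts against 11.09, 10.34 and 9.62 in E17.5 wild types, a difference of -2.18 (between ages 5.80, adjusted p = 5e-12). The 11 liver genes averaged 7.56, 8.13 and 7.27 in E17.5 knockouts against 5.16, 4.91 and 4.94 in E17.5 wild types, and 5.41, 6.12 and 5.51 in E18.5 knockouts against 4.89, 5.28 and 4.98 in E18.5 wild types. Pon1 is also made by liver, and the part of liver genes in its E17.5 values was not tested. In Pon1, Car4 and Crh the E17.5 groups did not overlap and lay in the opposite order to E18.5. Of the 15 largest falls at E18.5, 13 had a difference above 0 at E17.5, and of the 15 largest rises 14 had one below 0. Cell cycle genes had a median difference of -0.41 at E17.5 and 1.13 at E18.5, and type 2 cell genes of 0.59 and -0.75. Gsta3 kept its direction, at -0.71 at E17.5 (adjusted p = 0.53) and -2.33 at PND0 (adjusted p = 7.6e-06), and its E18.5 difference did not pass against the mean of the other ages (-0.73 ± 0.39, adjusted p = 0.28). Nfe2l2 was at -6.91 at E17.5 and -6.67 at PND0.

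**Figure D5:**
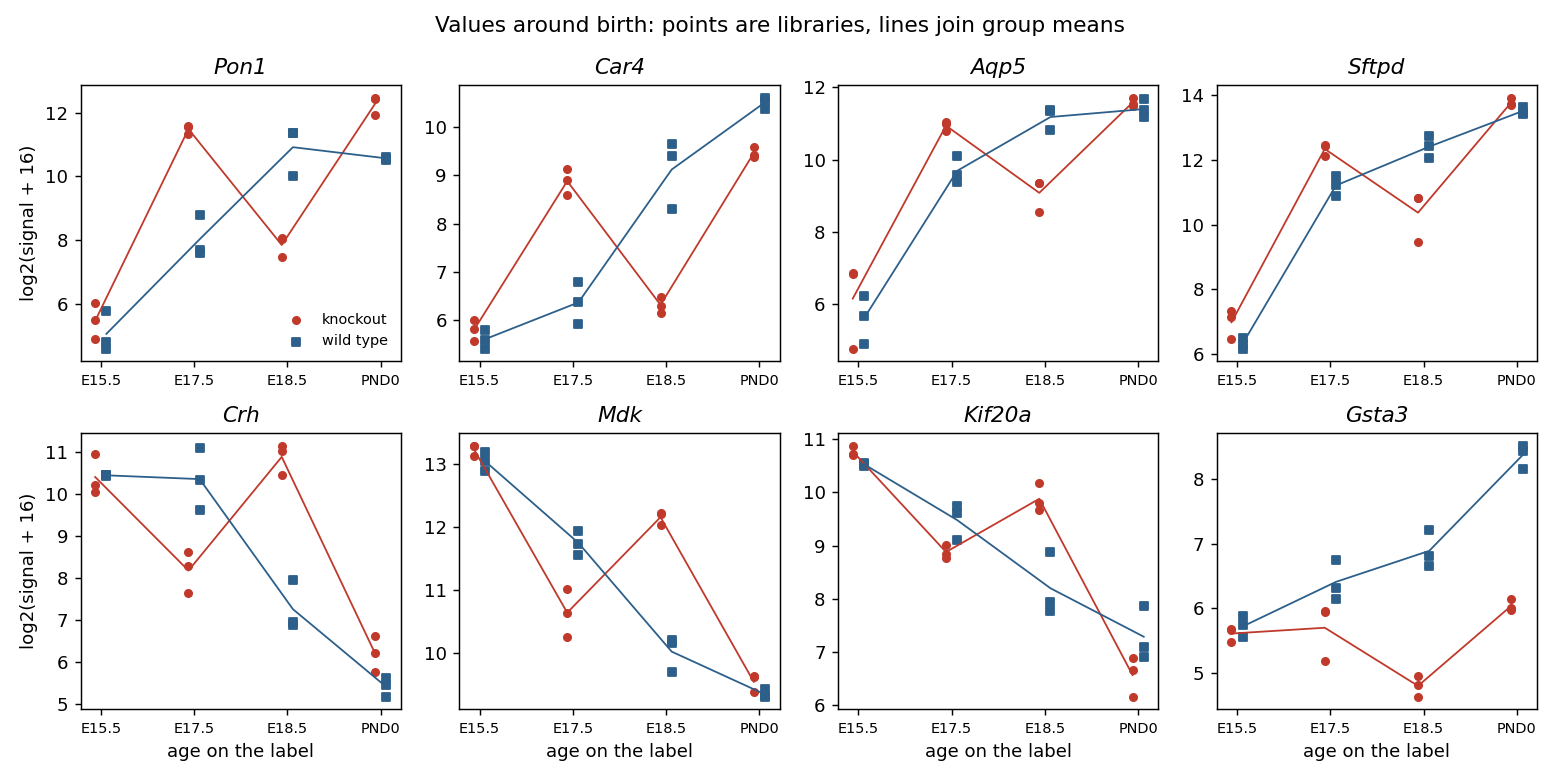
Levels, as log2(signal + 16), of 8 genes at E15.5, E17.5, E18.5 and PND0 by age on the label, knockouts left of wild types; points are libraries and lines join group means. In knockouts Pon1, Car4, Aqp5 and Sftpd are lower and Crh, Mdk and Kif20a higher at E18.5 than at E17.5, while Gsta3 is below wild type in knockouts at both E18.5 and PND0.

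Set beside wild-type E17.5, the group with the nearest position on the age scale, the knockouts labelled E18.5 differed in 112 probe sets (0.249%), standing for 44 genes (0.242%). At an unadjusted p under 0.05 there were 3735, against 9155 in the comparison with wild-type E18.5. The same knockout libraries stand in both comparisons, so the values are given side by side. Pon1 was at -0.18 against wild-type E17.5 and -3.07 against wild-type E18.5, Car4 at -0.05 and -2.80, Crh at 0.53 and 3.62, and Mdk at 0.41 and 2.14. None of these passed against wild-type E17.5. Nfe2l2 passed in both, at -6.74 and -6.71. Gsta3 was at -1.61 (adjusted p = 0.034) against 6.15, 6.75 and 6.31 in wild-type E17.5, the 1 Nrf2 target of 37 that passed there, while Aox3 was at -0.65 (adjusted p = 0.45) and Gstm1 at -0.84 (adjusted p = 0.064). Cutal, a gene related to the copper-tolerance protein CutA, was at 4.98, 4.56 and 4.24 in E18.5 knockouts against 6.39, 6.14 and 6.45 in wild-type E17.5 (-1.73, adjusted p = 0.0046), and at -2.06 ± 0.33 against wild-type E18.5. Tmem14c, a mitochondrial transporter of haem synthesis, was at 11.15, 10.95 and 11.01 in E18.5 knockouts against 9.55, 9.69 and 9.73 in wild-type E17.5 (1.38, adjusted p = 2e-08) and differed by 1.44 ± 0.15 from wild-type E18.5. Like Nfe2l2 and Gsta3, Cutal and Tmem14c were clear of both wild-type groups. Lifr, the receptor of leukaemia inhibitory factor, was at -1.15 (adjusted p = 0.00078) and -0.76 (adjusted p = 0.008), Lpin1, a phosphatidate phosphatase, at -0.96 (adjusted p = 0.0051) and -0.93, and Ifitm1 at -1.04 (adjusted p = 0.01) and -2.28, against wild-type E17.5 and wild-type E18.5 in that order. Near Nfe2l2 on chromosome 2, 3 of the 50 genes passed against wild-type E17.5: Cwc22 (-1.12, adjusted p = 2.5e-06), the RNA-binding protein gene Rbm45 (1.41, adjusted p = 0.0011; 0.53 and not called against wild-type E18.5) and Ttc30b, a gene of ciliary transport (-0.73, adjusted p = 0.014). No cell cycle, type 1, type 2 or cholesterol synthesis gene passed in this comparison. With 0.242% of all genes called, the lack of calls does not set these lists apart. Their median differences were 0.45, -0.28, -0.23 and 0.27 in that order, against 0.01 for all genes. The count of probe sets called against wild-type E17.5 was 45 to 95 without single knockout libraries, lowest without knockout replicate 1.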

How the data were processed

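Total RNA of single lungs, or of combined lungs at E13.5, was hybridised to 1 array per sample. The deposited intensities are linear probe set signals that the authors produced with GCOS, per the submitters' processing notes. The version, the algorithm and the target of scaling are not given in the sources used here. Of 45101 probe sets, 64 controls were left out; 34945 of the 45037 tested had 1 gene symbol, 932 several and 9160 none. The probe set with the highest mean stood for each of 18193 genes. The deposited signals were quantile normalized and converted to log2(value + 16).

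A limma model (version 3.58.1, R 4.3.3) of 22 group means with an intensity trend was fitted to 66 arrays (residual df 44, prior df 6.69). Calls are two-sided at 0.05 after Benjamini-Hochberg adjustment over the 45037 probe sets. The same model gave the differences between ages. On simulated data with independent normal noise and no outlying library, only the E18.5 genotype comparison was tried. It recovered 10% of planted differences of 0.5, 40% of those of 1, 70% of those of 1.5 and 92% of those of 2. Named genes were the 15 largest called falls and rises with separate groups, the 5 that differed most from other ages in each direction, and members of 45 lists (728 of 780 entries measured). Genes called against wild-type E17.5 were picked after their values were seen. The members and lists were chosen with earlier results of these data known. Alternatives changed the scaling, the pseudocount, the filter, the variance model, covariates, the groups fitted, the probe set per gene and the libraries used. Promoters came from RefSeq, and plots were drawn with matplotlib 3.10.9.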

Additional observations from a re-analysis of the deposited data

Results flagged for a closer look

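The knockout difference at E18.5 was unlike that at other ages by limma's test of the difference between ages. That test called 4410 probe sets against the mean of the 10 other ages, 3506 against E17.5 and 5191 against PND0, and leaving out wild-type replicate 2 lowered the first 2 counts to 2160 and 2205. The 10 other ages took in PND1 to PND4 arrays, whose deposited signals were on a lower scale. The knockouts labelled E18.5 averaged 0.44 on the age scale, below the 0.79 of those labelled E17.5. Genotype, age at sampling and labelling therefore cannot be told apart in these differences. The genes with the largest such differences are given by how far the E18.5 difference lay from the mean of the other ages. On the low side Pon1 lay at -3.56, Slc13a4 at -3.50, Inmt at -3.28, Car4 at -3.09 and Scgb1a1 at -2.89 ± 0.52 (SE, limma, adjusted p = 0.00014). On the high side Col2a1 lay at 3.97 ± 1.05 (limma, adjusted p = 0.0088), Crh at 3.53, Col9a1 at 2.69, Igfbp2 at 2.68 and Mdk at 2.38. Cartilage genes were high in knockout replicate 1, and its part in the values of Col2a1 and Col9a1 between ages was not tested.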

How the results depend on the processing

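Of 30 named genes recomputed under the alternatives none reversed. All 30 had been picked as called genes whose groups did not overlap, so most alternatives could not have reversed them. Of their values under the alternatives, 602 kept their direction and side of the threshold and 51 kept their direction but no longer passed. The 3940 calls at E18.5 became 7009 with array weights, 1719 with the 6 libraries fitted alone (47.8% higher, against 54%), 2590 with 1 probe set per gene and 2435 without the pair of libraries that stood apart, an alternative chosen after seeing the data. Leaving out single libraries gave 1651 to 4847 calls. With array weights, the tests between ages gave 6942 calls against the other ages, 7216 against E17.5 and 8066 against PND0. Against E17.5, 47.2% were higher, 52.1% on deposited values and 50.8% with array weights; against the other ages, 53.6% were higher and 66.1% on deposited values. With single libraries left out they gave 2160 to 5345 against the other ages and 2205 to 4220 against E17.5. The lowest counts were without wild-type replicate 2, and knockout replicate 1 gave 2213 and 2227, and wild-type replicate 1 gave 2395 against the other ages. With 1 probe set per gene, 3311 were called against PND0. The 112 calls against wild-type E17.5 became 185 in the brighter part of the probe sets, 745 with array weights, 14 with both groups alone, 50 with only the 42 arrays of ages other than PND1 to PND4, 183 with the Gapdh ratio as a covariate, 44 with 1 probe set per gene and 45 to 95 without single knockout libraries (73 without replicate 3).

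Among lists, 5 to 31 cell cycle genes rose without single libraries and 17 without the pair. Type 1 cell falls numbered 3 at a 2-fold minimum, 5 with array medians subtracted, 3 to 9 without single libraries and 3 without the pair. Cholesterol synthesis rises numbered 0 at a 2-fold minimum and 5 to 9 without single libraries. Hypoxia falls numbered 1 at a 2-fold minimum, 3 on deposited values, 3 with array medians subtracted and 2 to 8 without single libraries. Cartilage rises numbered 0 to 9 without single libraries and 0 without the pair. Wild-type E18.5 lay at 0.66 on the age scale when PND14 was its end. The causes were not tested. Same-numbered knockout and wild-type samples deviated with correlations of -0.18, 0.21 and -0.18. With 3 samples per group, these values cannot show whether the numbers pair the samples, and the main model did not pair them. With the replicate number as a block, 3951 probe sets were called at E18.5 and 122 against wild-type E17.5. Each group had 3 arrays, and a missed call does not show that values were alike.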
